A study of Rattus norvegicus with 24 samples.

Results

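In rats that breathed Iraqi sand without cigarette smoke, a set of 7 genes was expressed at a lower level in the lung than in rats that breathed silica, by 0.52 to 1.37 on the log2 scale. The genes were Prkaa2, C11h21orf91, Ro60, Bbx, Efcab14, Xpo4 and Sdcbp2. They are 7 of 14217 genes measured and were chosen from these same arrays for being lower with sand than with silica, so that difference is described here and not tested. They are carried by 11 of the 20826 probe sets that the array annotation pairs with exactly 1 gene symbol, and each gene was found there by that symbol. All 7 passed an adjusted p under 0.05 for sand against silica averaged over air and smoke, which set them among 13 genes lower with sand.

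The animals were 24 male CD Sprague-Dawley rats, an outbred strain, in 6 groups of 4, and RNA of the right caudal lobe of each lung was hybridised to 1 Affymetrix rat array. The labels give an age of 17 weeks for each animal, and the study plan among them gives 10 to 15 weeks. The groups without smoke breathed air by the nose-only route and, in whole-body exposure, air, Iraqi sand or silica, and the groups with cigarette smoke breathed it by the nose-only route beside the same 3 whole-body conditions. The series text calls the silica a manufactured silica sand; below, sand always means the Iraqi sand. Smoke was set at 0.48 mg wet particulate per litre, for 3 hours on 5 days a week, over 5 weeks by the protocol and 6 weeks by the series text. Particles were set at 1 mg per cubic metre for 18 hours on 7 days a week, over 2 weeks. Air controls are labelled with both exposure routes, and all rats were killed under pentobarbital by exsanguination. A whole lobe holds many cell types, and fewer cells of a type cannot be told apart from less RNA per cell in such tissue.

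Levels are log2 signals after RMA, the authors' background correction, quantile normalization and summary of probes, and a level cannot be set against that of another gene. A gene with several probe sets is represented by the brightest, and the others are given further on. Array medians lay between 7.26 and 7.32, and lung markers were high in every animal, with surfactant protein C (Sftpc) between 14.79 and 14.95. Rat 302, in the sand group without smoke, stood apart: its mean correlation with the other arrays was 0.948, against at least 0.983 for each other rat. It also had the heart gene Myl7 at 11.51, where its 3 group mates lay between 4.56 and 5.68, and the airway gene Bpifa1 at 12.63, where they lay between 6.76 and 7.05. Rat 104, without smoke or particles, had both of those genes high too, at 12.04 and 11.77. The main results that rest on the sand group without smoke are therefore given with and without rat 302. RNA integrity numbers, known for 19 arrays, averaged 8.85 in that sand group and 9.13 in the silica group without smoke, and the part of RNA quality in the sand-silica difference was not tested beyond the alternatives reported with the processing.

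The 7 genes belong to different systems. Prkaa2 encodes the alpha-2 catalytic subunit of AMPK, the kinase that cells switch on when ATP runs low and that turns down biosynthesis and turns up fuel use. Ro60 encodes a ring-shaped protein that binds Y RNAs and misfolded small RNAs and is an autoantigen in lupus and Sjögren's syndrome. Xpo4 encodes exportin 4, a nuclear export receptor whose known cargoes include the translation factor eIF5A, and Bbx encodes a DNA-binding protein with an HMG box. Sdcbp2 encodes syntenin-2, a PDZ protein that binds phosphoinositides, while Efcab14 encodes a protein with EF-hand calcium-binding motifs and C11h21orf91 is the rat form of a human chromosome 21 gene studied in neural development. Silica, in its crystalline form, is known for injuring alveolar macrophages and inflaming the lung.

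The RefSeq promoter table of assembly GRCr8 listed 6 of the 7 genes, and for 4 of them the 250 bases before the transcription start are shown, because Prkaa2, C11h21orf91 and Ro60 had the lowest sand minus silica values of those 6 without smoke and Sdcbp2 the lowest under smoke. They are written 5′ to 3′ on the gene's strand, with capitals marking matches to any of 9 motifs searched on both strands. The motifs were the GC box GGGCGG, the CCAAT box, the E-box CACGTG, the cyclic AMP response element TGACGTCA and its shorter core TGACG, which it contains, AP-1 as TGANTCA, the xenobiotic response core GCGTG, the antioxidant response core TGACNNNGC and TATAAA.
Prkaa2, chr5:125108325-125108574, minus strand: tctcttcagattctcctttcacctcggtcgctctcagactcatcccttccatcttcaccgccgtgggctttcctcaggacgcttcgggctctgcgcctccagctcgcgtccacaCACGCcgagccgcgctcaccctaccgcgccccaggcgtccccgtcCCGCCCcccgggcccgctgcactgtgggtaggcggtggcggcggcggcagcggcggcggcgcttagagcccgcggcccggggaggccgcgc
C11h21orf91, chr11:30749123-30749372, minus strand: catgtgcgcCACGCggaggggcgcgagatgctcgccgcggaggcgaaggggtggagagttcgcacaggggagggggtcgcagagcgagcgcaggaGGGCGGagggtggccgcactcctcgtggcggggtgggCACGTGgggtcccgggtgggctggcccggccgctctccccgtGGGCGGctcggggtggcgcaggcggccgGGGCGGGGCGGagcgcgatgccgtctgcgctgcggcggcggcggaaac
Ro60, chr13:58070829-58071078, minus strand: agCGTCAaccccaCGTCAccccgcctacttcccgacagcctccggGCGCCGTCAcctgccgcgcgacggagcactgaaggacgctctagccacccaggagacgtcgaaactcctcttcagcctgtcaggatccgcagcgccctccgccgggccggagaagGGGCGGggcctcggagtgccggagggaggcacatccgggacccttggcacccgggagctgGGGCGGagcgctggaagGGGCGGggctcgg
Sdcbp2, chr3:160530677-160530926, plus strand: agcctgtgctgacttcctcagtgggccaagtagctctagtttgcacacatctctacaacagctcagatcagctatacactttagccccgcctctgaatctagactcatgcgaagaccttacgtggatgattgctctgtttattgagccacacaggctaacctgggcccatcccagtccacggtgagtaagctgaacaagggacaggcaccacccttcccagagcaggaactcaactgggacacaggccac
The stretches of Prkaa2, C11h21orf91 and Ro60 were rich in G and C, at 72.8%, 78.8% and 72.4%, and that of Xpo4 was at 75.2%, where the median of all 33469 promoters listed was 51.2%. Sdcbp2 lay near that median at 53.2%, as did Efcab14 at 52.4%. The GC box occurred 1 time before Prkaa2, 4 times before C11h21orf91, 3 times before Ro60 and 1 time before Xpo4, and 30.5% of all promoters held it. C11h21orf91 also held the E-box, found in 5.59% of promoters, and Ro60 held 3 copies of TGACG, found in 18.2%, of which the capitals GCGCCGTCA show 1 inside a match to the antioxidant response core, found in 10.1%. The xenobiotic core GCGTG was present before Prkaa2, C11h21orf91, Efcab14 and Xpo4 and in 25.9% of all promoters. Xpo4 also held 1 copy of TGACG and 1 match to the antioxidant response core. The CCAAT box occurred 1 time each before Efcab14 and Xpo4, and in 34% of all promoters. None of the 9 motifs was found in the Sdcbp2 stretch, which says only that these letters are not in that window.

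Prkaa2, the AMPK subunit, showed the sand-silica difference mainly in rats without smoke. Without particles or smoke its levels were 8.48, 8.58, 8.23 and 8.37. Sand without smoke gave 8.25 in rat 301, 6.97 in rat 302, 8.08 in rat 304 and 7.54 in rat 305, and silica without smoke gave 9.05, 8.96, 9.11 and 8.89. Every sand rat lay below every silica rat, and the silica rats all lay above the rats without particles. Under smoke the levels were 8.48, 8.51, 8.45 and 8.49 without particles, 8.51, 8.92, 8.68 and 8.55 with sand, and 9.10, 8.99, 8.69 and 8.82 with silica, so sand and silica overlapped. The sand minus silica difference was -1.29 ± 0.18 (SE) without smoke, a 2.45-fold lower level with sand, and -0.23 ± 0.18 under smoke. For each gene the SE rests on 1 spread shared by the 6 groups. For Prkaa2 the SD without smoke was 0.58 with sand and 0.10 with silica, so the groups were not equally spread. Without rat 302, which was the lowest animal of the series for this gene, the difference without smoke was -1.05 ± 0.13.

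C11h21orf91 had the lowest sand minus silica value of the 7 without smoke. Its levels were 9.11, 9.38, 9.56 and 9.0 without particles or smoke, 8.70, 7.67, 8.52 and 7.86 with sand, and 9.43, 9.49, 9.54 and 9.79 with silica. All 4 sand rats were below every rat of the other groups without smoke, and rats 302 and 305 were the lowest. Under smoke the values lay in a common range, at 9.31, 9.26, 9.36 and 8.94 without particles, 9.68, 9.35, 9.48 and 9.25 with sand and 9.73, 9.70, 9.71 and 9.37 with silica. Sand minus silica was -1.37 ± 0.18 without smoke (2.59-fold lower), -1.20 ± 0.17 without rat 302, and -0.18 ± 0.18 under smoke. Of the 14217 genes, 3 had a lower value in the comparison without smoke.

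Ro60, the RNA-binding autoantigen, had the lowest mean signal of the members, 6.20, which does not rank the amounts of RNA. Its levels without smoke were 6.09, 6.17, 5.85 and 5.91 without particles, 5.75, 4.83, 5.78 and 5.41 with sand and 6.67, 6.30, 6.72 and 6.82 with silica. In this brightest probe set the 3 groups did not overlap, with sand lowest and silica highest. In smoke-exposed rats the levels were 6.15, 6.19, 6.42 and 5.47 without particles, 6.25, 6.39, 6.49 and 6.18 with sand and 6.54, 7.21, 6.89 and 6.32 with silica, where the ranges of sand and silica crossed. The difference was -1.18 ± 0.21 without smoke (2.27-fold lower), -0.98 ± 0.20 without rat 302 and -0.41 ± 0.21 under smoke.

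Bbx, the HMG-box gene, had a sand minus silica value near 0 under smoke. Without smoke it stood at 8.08, 8.37, 8.17 and 7.93 without particles, 7.96, 7.46, 7.82 and 7.05 with sand and 8.63, 8.53, 8.76 and 8.69 with silica. Here rat 305, not rat 302, was the lowest, and leaving out rat 302 moved the difference only from -1.08 ± 0.15 to -1.04 ± 0.16. Under smoke it stood at 8.02, 8.15, 8.19 and 8.11 without particles, 8.86, 8.59, 8.36 and 8.67 with sand and 8.80, 8.61, 8.46 and 8.56 with silica. Both particle groups lay above all 4 smoke-exposed rats without particles and covered the same range, with a difference of 0.01 ± 0.15.

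Efcab14 varied least of the members between rats of a group, with a residual SD of 0.11. Its levels without smoke were 9.75, 9.90, 9.68 and 9.73 without particles, 9.56, 9.31, 9.56 and 9.42 with sand and 9.95, 9.97, 10.15 and 10.03 with silica, in 3 separate ranges. Under smoke they were 9.96, 9.73, 9.75 and 9.75 without particles, 10.12, 10.09, 9.90 and 10.08 with sand, and 10.24, 10.15, 10.14 and 9.98 with silica. Under smoke 3 of the 4 sand rats lay within the silica range, and rat 405, at 9.90, lay below it. Sand minus silica was -0.56 ± 0.08 without smoke, -0.51 ± 0.08 without rat 302, and -0.08 ± 0.08 under smoke.

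Xpo4, the exportin, kept separate sand and silica ranges in both settings in its brightest probe set, though not in its others. Without smoke its levels were 7.63, 8.0, 7.81 and 7.50 without particles, 7.45, 7.58, 7.32 and 7.22 with sand and 7.86, 8.04, 7.92 and 7.81 with silica. Under smoke they were 7.62, 7.68, 7.67 and 7.63, then 7.53, 7.64, 7.58 and 7.47 with sand and 7.98, 7.85, 7.81 and 7.79 with silica. Rats without particles or smoke overlapped both particle groups, and those with smoke overlapped the sand group. Rat 302 was the highest of the sand rats here, and the difference without smoke went from -0.52 ± 0.09 to -0.58 ± 0.09 when it was left out; under smoke the difference was -0.30 ± 0.09.

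Sdcbp2, the syntenin-2 gene, had a sand minus silica value of -0.58 without smoke and -0.57 under smoke. Its levels without smoke were 7.20, 7.14, 7.21 and 7.33 without particles, 6.91, 7.13, 7.19 and 7.35 with sand, and 7.96, 7.32, 7.79 and 7.81 with silica, where silica rat 502 fell below the highest sand rat. Under smoke they were 8.07, 7.78, 7.80 and 7.73 without particles, 7.43, 7.54, 7.52 and 7.80 with sand and 7.87, 8.25, 8.30 and 8.16 with silica, with no overlap of sand and silica. The SE of both differences was 0.13, and without rat 302 the difference without smoke was -0.57 ± 0.14.

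**Figure D1:**
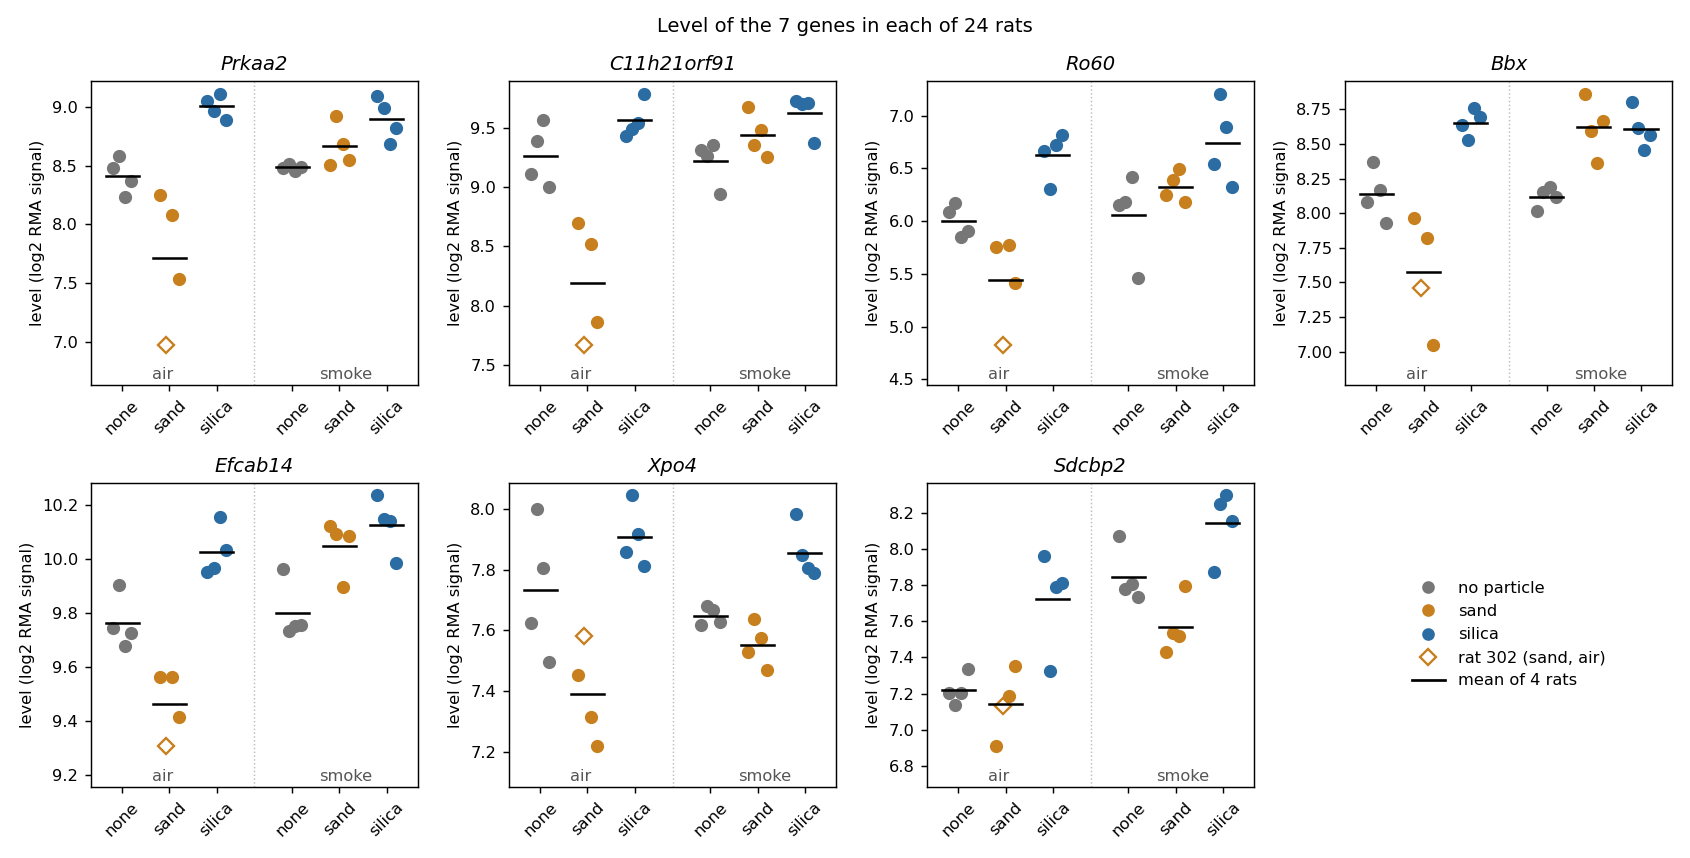
Level (log2 RMA signal, vertical axis) of each of the 7 genes in 24 rats, in groups without particles, with sand or with silica, breathing air (left of each panel) or smoke (right); points are rats, the open diamond is rat 302 and lines are means of 4 rats. Prkaa2, C11h21orf91, Ro60, Bbx and Efcab14 were lowest with sand in air and nearer to silica under smoke, while Sdcbp2 was higher under smoke in all 3 particle conditions.

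Over the members, the median of sand minus silica was -1.08 without smoke and -0.23 under smoke, beside 0.05 and 0.00 over all genes. Without rat 302 the median without smoke was -0.98. Every sand rat lay below every silica rat for 6 members without smoke, as it did for 1.21% of all genes, and for Xpo4 and Sdcbp2 under smoke, as it did for 3.42% of all genes. Leaving out rat 302 changed neither list of members, while those shares became 3.31% and 3.42%. With each gene taken by its brightest probe set, Xpo4 was 1 of 6 genes, or 0.0422%, that kept the ranges apart in both settings. Without rat 302, 22 genes, or 0.155%, did so. As the members were chosen for this direction, nothing is read from these counts. An adjusted p under 0.05 was reached without smoke by 39 genes, or 0.274%, and without rat 302 by 36, or 0.253%, of which 34 were lower, or 0.239%. Under smoke it was reached by 0 genes, with 989 genes at an unadjusted p under 0.05.

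In the comparison averaged over air and smoke, 17 genes, or 0.12%, passed, and 13 of them, or 0.0914%, were lower with sand; without rat 302, 25 passed, or 0.176%, and 19 were lower, or 0.134%. Besides the 7 members these were Ccnd2 at -1.16, Cped1 at -0.74, Arid5b at -0.36, Kctd4 at -0.46, Tma7 at -0.23 and Nkap at -0.34. The members ranged from -0.80 for Ro60 to -0.32 for Efcab14. Just inside the threshold stood Bbx at -0.53 and Nkap, and just outside it stood LOC100912031 at -0.96 ± 0.19 and Rnf125 at -0.54 ± 0.11. Genes with averaged values lower still but wide spread, such as Zbtb41 at -0.96 ± 0.23 and Rgs1 at -0.82 ± 0.26, did not pass. At the other end the highest averaged values belonged to Gp2 at 1.27 ± 0.85, Clca1 at 1.19 ± 0.76, Glycam1 at 0.80 ± 0.51, Bpifa1 at 0.74 ± 1.02 and Mcpt10 at 0.72 ± 0.31.

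**Figure D2:**
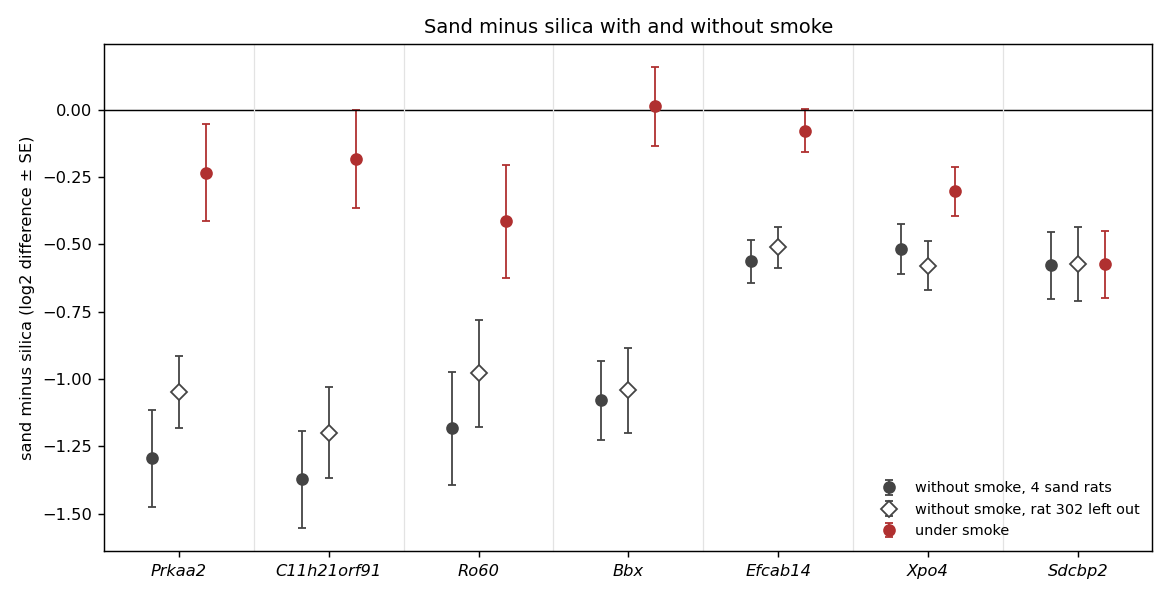
Sand minus silica (log2 difference ± SE from the fit over 24 arrays) for each of the 7 genes without smoke (dark circles), without smoke and with rat 302 left out (open diamonds) and under smoke (red circles). For Prkaa2, C11h21orf91, Ro60, Bbx and Efcab14 the points under smoke lie nearer to 0, and for Sdcbp2 they lie at -0.58 without smoke and -0.57 under smoke.

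The change of the difference under smoke was then tested with limma's interaction contrast. With equal spread in the groups it would be uncorrelated with the averaged difference, but not with the difference in either setting. The spread was not equal: in the sand group without smoke the SD was 0.58 for Prkaa2, 0.50 for C11h21orf91 and 0.41 for Bbx. In the silica group without smoke it was 0.10, 0.16 and 0.10. The SE and p below take 1 shared spread per gene and do not allow for this. The contrast is built from the same sand and silica groups, so its values for these genes are not independent of the choice of members. The gap was closer to 0 under smoke by 1.06 ± 0.25 for Prkaa2, 1.19 ± 0.26 for C11h21orf91, 1.09 ± 0.21 for Bbx, 0.77 ± 0.30 for Ro60 and 0.49 ± 0.11 for Efcab14. Xpo4 had 0.21 ± 0.13 and Sdcbp2 0.00 ± 0.18, with a 95% interval from -0.37 to 0.37. After Benjamini-Hochberg adjustment over all genes, 0 of the 7 passed at 0.05 in limma, and 5 of 7 had an unadjusted p under 0.05, as did 7.07% of all genes. Nothing is read from that count, because the members were chosen from these same sand and silica groups. The smallest limma adjusted p was 0.0703, for Bbx, followed by 0.135 for C11h21orf91, 0.223 for Efcab14 and 0.241 for Prkaa2, while Ro60 was at 0.683. In all 14217 genes only the cyclin Ccnd2 passed, which is 0.00703%, and without rat 302 a total of 4 genes passed, 0.0281%, with 0 members among them. Without rat 302 the values were 0.82 for Prkaa2, 1.02 for C11h21orf91, 1.05 for Bbx, 0.56 for Ro60, 0.43 for Efcab14 and 0.28 for Xpo4, and the smallest limma adjusted p among the members was 0.0973, for Bbx. Whether a member passed depended on single animals. Without rat 301, the sand rat with the highest Prkaa2, C11h21orf91 and Bbx, those 3 genes passed with limma adjusted p of 0.0451, 0.0413 and 0.0248. Without rat 405 Bbx passed at 0.0347. Leaving out rat 301 also moved the gap without smoke, which shares in the choice of the genes, to -1.47, -1.54 and -1.21. Nothing is read from these passes, because they rest on the groups that chose the members.

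Each particle was also set against the rats without particles. Both comparisons of a setting share those control rats, so they are given side by side. Without smoke, sand minus no particle was -0.71 ± 0.18 for Prkaa2, -1.08 ± 0.18 for C11h21orf91, -0.56 ± 0.21 for Ro60, -0.56 ± 0.15 for Bbx, -0.30 ± 0.08 for Efcab14 and -0.34 ± 0.09 for Xpo4, but -0.08 ± 0.13 for Sdcbp2. Silica minus no particle was above 0 for all 7, with 0.59 ± 0.18 for Prkaa2, 0.62 ± 0.21 for Ro60, 0.52 ± 0.15 for Bbx, 0.50 ± 0.13 for Sdcbp2 and 0.30 ± 0.18 for C11h21orf91. For Efcab14 it was 0.26 ± 0.08 and for Xpo4 0.18 ± 0.09. With and without rat 302, the values of C11h21orf91, Xpo4 and, by little, Bbx were farther from 0 with sand than with silica. Those of Sdcbp2 and Ro60 were farther from 0 with silica. For Prkaa2 and Efcab14 the order changed when rat 302 was left out. Leaving out rat 302 brought the sand values to -0.46 ± 0.13 for Prkaa2, -0.90 ± 0.17 for C11h21orf91, -0.36 ± 0.20 for Ro60, -0.52 ± 0.16 for Bbx, -0.25 ± 0.08 for Efcab14, -0.40 ± 0.09 for Xpo4 and -0.07 ± 0.14 for Sdcbp2.

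Under smoke the silica side was still above 0 for all 7 genes, from 0.21 ± 0.09 for Xpo4 to 0.69 ± 0.21 for Ro60. The sand side was above 0 for 5 of the 7: it was 0.18 ± 0.18 for Prkaa2, 0.22 ± 0.18 for C11h21orf91, 0.27 ± 0.21 for Ro60, 0.50 ± 0.15 for Bbx and 0.25 ± 0.08 for Efcab14. Sdcbp2 was at -0.28 ± 0.13 with sand and 0.30 ± 0.13 with silica, and Xpo4 stood at -0.10 ± 0.09 with sand. These values share their particle groups with the difference that chose the genes and were not tested. The mean of both particles against none, averaged over air and smoke, gives sand and silica equal weight, so equal and opposite shifts cancel in it. It uses the same sand and silica arrays as the gap, and a shift with sand alone would move both. Its values are therefore not fully independent of the choice of the genes. In that comparison 0 of 7 members passed in limma, 2 of 7 had an unadjusted p under 0.05 (Bbx at 0.24 ± 0.09 and Efcab14 at 0.13 ± 0.05), as did 7.31% of all genes, and 27 of all genes passed, or 0.19%. Without rat 302, 0 of 7 passed, beside 124 of all genes, or 0.872%, and 4 of 7 had an unadjusted p under 0.05, as did 17.3% of all genes.

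**Figure D3:**
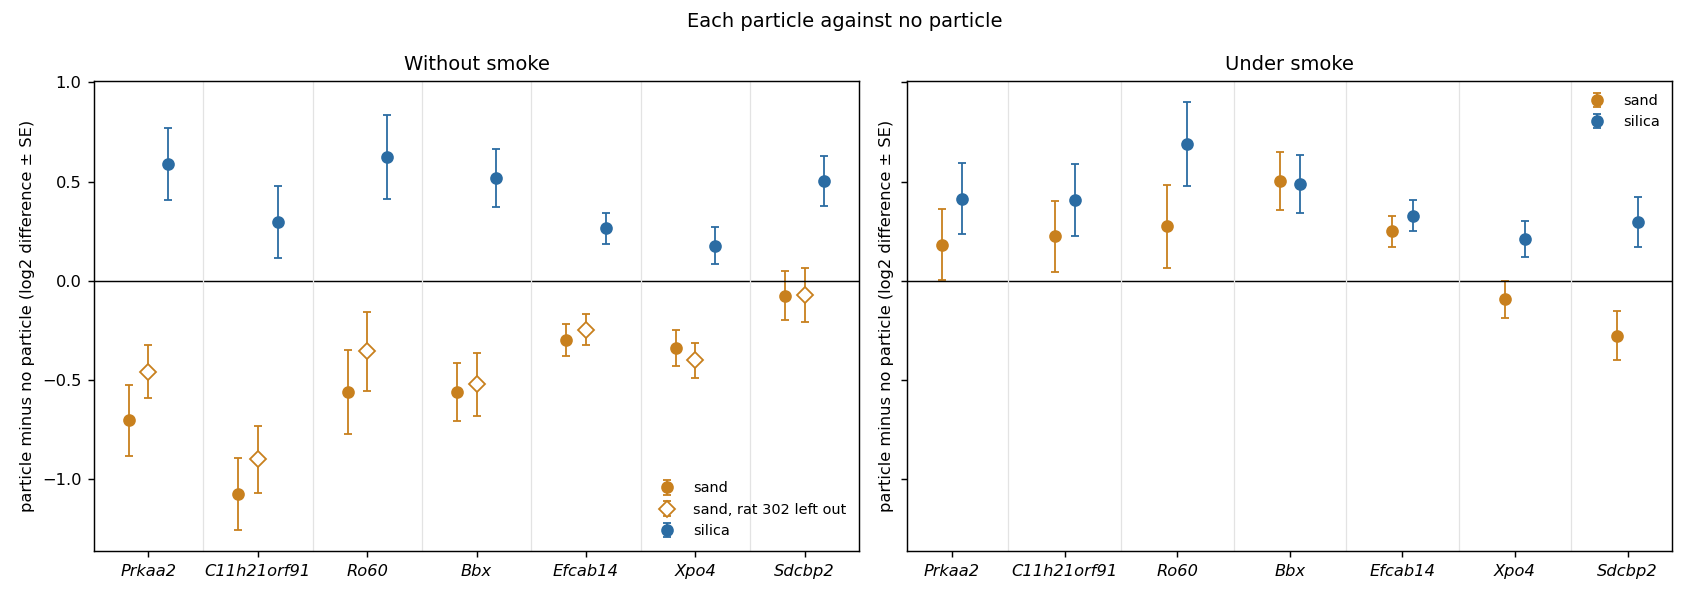
Sand (orange) and silica (blue) minus no particle (log2 difference ± SE) for the 7 genes, without smoke on the left and under smoke on the right; open diamonds leave out rat 302. Silica lies above 0 for all 7 genes in both panels, while sand lies below 0 for all 7 without smoke and above 0 for 5 of them under smoke.

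Smoke by itself raised Sdcbp2, the syntenin-2 gene, and no call was made for the other members. In rats without particles, Sdcbp2 was 0.63 ± 0.13 higher with smoke (1 of 7 members called, limma adjusted p = 0.0158), and all 4 smoke-exposed rats, from 7.73 to 8.07, lay above all 4 air rats, from 7.14 to 7.33. In the same comparison 127 genes passed, or 0.893%, of which 108 were higher, or 0.76%; without rat 302, which adds only to the shared spread here, 269 passed, or 1.89%, and Sdcbp2 had a limma adjusted p of 0.0111. The call did not hold without rat 201 (limma adjusted p = 0.0914), rat 102 (0.0544) or rat 103 (0.0565), or on the 19 arrays with an RNA integrity number (0.0846), while the difference stayed between 0.55 and 0.66 in every fit without 1 rat. The other 6 members lay between -0.08 ± 0.09 for Xpo4 and 0.07 ± 0.18 for Prkaa2, with limma adjusted p of at least 0.885.

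Averaged over the 3 particle conditions, 4 of the 7 members were called higher with smoke. This average includes the sand rats without smoke, whose low values entered the choice of the genes. It is therefore not fully independent of that choice, nothing is read from the count of 4, and its components are given below. For C11h21orf91 and Bbx, smoke minus air was -0.05 ± 0.18 and -0.02 ± 0.15 without particles. With silica the values were 0.06 ± 0.18 and -0.04 ± 0.15, so the calls of these genes rest on the sand groups. Sdcbp2 was higher by 0.49 ± 0.07 (limma adjusted p = 0.000333), Efcab14 by 0.24 ± 0.05 (0.00295), C11h21orf91 by 0.42 ± 0.10 (0.0183) and Bbx by 0.33 ± 0.08 (0.0229). Prkaa2 had 0.31 ± 0.10 (0.0765), Ro60 0.35 ± 0.12 (0.0839) and Xpo4 0.01 ± 0.05 (0.943). On the 19 arrays with an RNA integrity number, C11h21orf91 and Bbx no longer passed (limma adjusted p = 0.0868 and 0.164). Over all genes 908 passed, or 6.39%, of which 382 were higher, or 2.69%; without rat 302, 1463 passed, or 10.3%, of which 656 were higher, or 4.61%, and again 4 of 7 members. Alveolar macrophage markers rose with smoke in the same comparison, with 8 of 12 measured markers called higher and 0 lower, and their summed level ran from 14.29 to 14.53 in air rats without particles and from 15.30 to 15.72 in smoke-exposed rats without particles; T and NK cell markers had 7 of 11 lower. The part of these cells in the values of the members was not tested.

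The components of that average differed between members, as a description. With sand, smoke minus air was 1.25 ± 0.18 for C11h21orf91, 1.05 ± 0.15 for Bbx, 0.95 ± 0.18 for Prkaa2, 0.88 ± 0.21 for Ro60 and 0.59 ± 0.08 for Efcab14, and without rat 302 these values were 1.08 ± 0.17, 1.01 ± 0.16, 0.71 ± 0.13, 0.68 ± 0.20 and 0.53 ± 0.08. With silica, the same 5 genes lay between -0.11 ± 0.18 for Prkaa2 and 0.12 ± 0.21 for Ro60. Sdcbp2 had 0.63 ± 0.13 without particles, 0.43 ± 0.13 with sand and 0.42 ± 0.13 with silica.

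**Figure D4:**
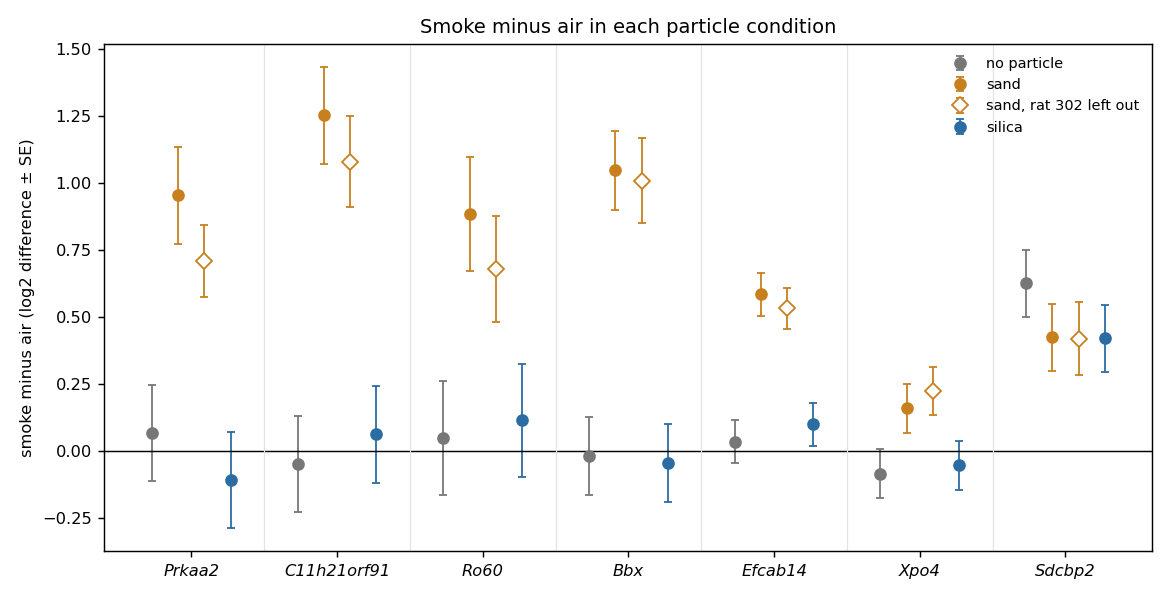
Smoke minus air (log2 difference ± SE) for the 7 genes without particles (grey), with sand (orange), with sand and rat 302 left out (open diamonds) and with silica (blue). The orange points stand above the grey and blue points for Prkaa2, C11h21orf91, Ro60, Bbx and Efcab14, and all points stand above 0 for Sdcbp2.

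Where a gene had other probe sets, they showed the gap with the same sign and a smaller or similar size. The other probe set of C11h21orf91 had -0.71 ± 0.12 without smoke and -0.12 ± 0.12 under smoke, and its correlation with the brightest over 24 rats was 0.90. For averaged smoke it had 0.17 ± 0.07, where the brightest had 0.42 ± 0.10. Its change of the gap under smoke was 0.58 ± 0.17, where the brightest had 1.19 ± 0.26. Ro60's other probe set had -1.06 ± 0.27 and -0.47 ± 0.27, with a correlation of 0.88. In that probe set, without smoke, sand (up to 5.845) stayed below silica (from 5.971). The rats without particles, from 5.840 to 6.656, overlapped both. Xpo4 was less even: its other probe sets had -0.31 ± 0.12 and -0.17 ± 0.10 without smoke and -0.21 ± 0.12 and -0.22 ± 0.10 under smoke, and correlated with the brightest at 0.41 and 0.26. The last of these was dim, at a mean level of 4.68. In the first, sand and silica rats overlapped without smoke (sand up to 6.66, silica from 6.51) and under smoke (6.78 and 6.71). In the dim one they overlapped under smoke only, with sand up to 4.79 and silica from 4.63. Without rat 302 the first of these other probe sets had -0.19 ± 0.11 without smoke. For the change of the gap under smoke, these other probe sets of Xpo4 had 0.09 ± 0.17 and -0.05 ± 0.14 over all rats. Prkaa2, Bbx, Efcab14 and Sdcbp2 have 1 probe set each, so no such comparison exists for them. With a gene's probe sets averaged, the gap without smoke was -1.04 for C11h21orf91 and -0.33 for Xpo4, and with array quality weights it was -0.98 for Prkaa2. Only probe sets paired with exactly 1 symbol were looked up, so a probe set that a member shares with another gene would not appear here.

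**Figure D5:**
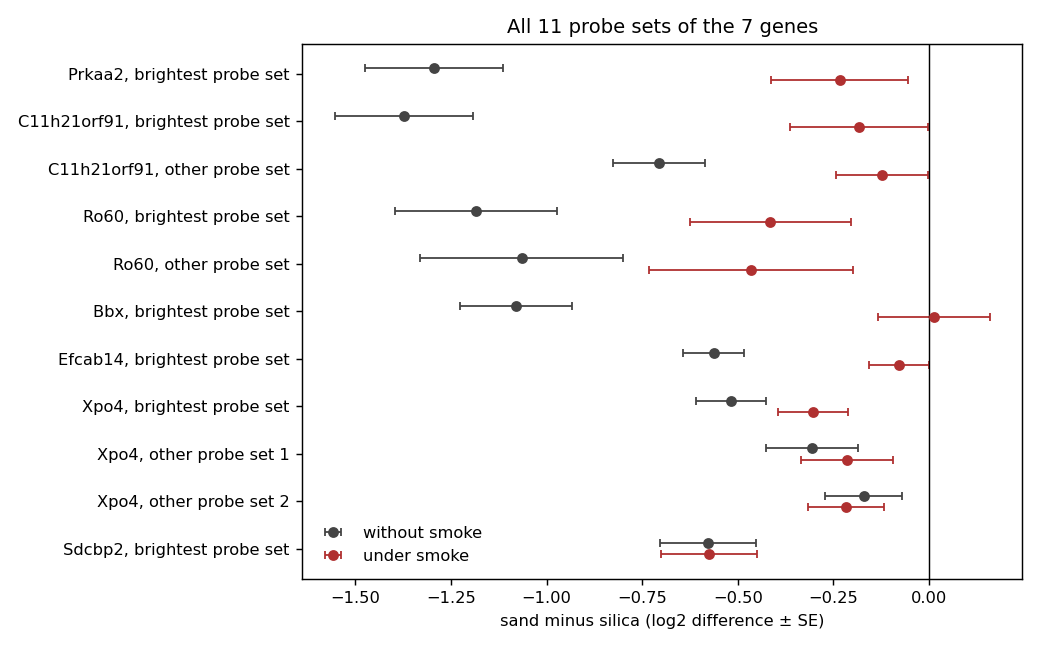
Sand minus silica (log2 difference ± SE, horizontal axis) for the 11 probe sets of the 7 genes, without smoke (dark) and under smoke (red). Without smoke all 11 lie below 0, and the 3 probe sets of Xpo4 lie between -0.52 and -0.17.

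Within groups, the genes varied together to different degrees. After each group's mean was taken away, Prkaa2, C11h21orf91, Ro60, Bbx and Efcab14 had correlations over 24 rats between 0.25 and 0.66, with a median of 0.56 over 10 pairs, and between 0.21 and 0.69 with a median of 0.42 without rat 302. This grouping of 5 was made after their values were seen, and the rats share arrays and normalization. The sand group without smoke weighs most in these correlations. Its SD was 0.58 for Prkaa2, 0.50 for C11h21orf91 and 0.41 for Bbx, where every other group had at most 0.19, 0.25 and 0.21. Ro60 and Efcab14 were more even, with 0.44 and 0.13 in that group and at most 0.41 and 0.11 in the others. Sdcbp2 varied apart, with correlations from -0.59 (with Xpo4) to 0.22 (with Ro60) and a median of -0.25. The median of Xpo4 with the other 5 went from 0.11 to 0.49 when rat 302 was left out. Among the sand rats without smoke, rat 302 was the lowest for 4 members, rat 305 for 2 and rat 301 for 1. The RNA integrity number was lowest, at 8.1, in rat 301, which was the highest of the 4 for 3 members.

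The genes most like the members over the 23 rats other than 302, by Pearson correlation with the members' mean standardized level, were Ccnd2 (cyclin D2, which drives the cell cycle through G1) at 0.92, the myotubularin relative Mtmr9 at 0.89, the glycogen synthase kinase gene Gsk3b at 0.89, LOC100912031 at 0.88 and Bcr at 0.87. The members themselves, each a part of that mean, had 0.94 for Prkaa2 and 0.67 for Sdcbp2 as the extremes. These levels carry the group differences for which the members were chosen. With group means removed, the correlation was 0.75 for Ccnd2, 0.50 for Mtmr9, 0.54 for Gsk3b, 0.59 for LOC100912031 and 0.42 for Bcr. Ccnd2 had the lowest averaged sand minus silica value of all genes, with -2.06 ± 0.19 without smoke and -0.26 ± 0.19 under smoke. Mtmr9 had -0.71 ± 0.12 and -0.01 ± 0.12.

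Of 5 lists of pathway relatives of the members, 4 had 0 genes called for sand against silica apart from the members. Over all genes the calls were 0.274% without smoke and 0 under smoke. Of the 29 measured genes of the AMPK complex, its upstream kinases and its targets, 0 passed for sand against silica in either setting other than Prkaa2 itself, with 6 of the other 28 at an unadjusted p under 0.05 in limma without smoke, as were 11.9% of all genes, and their median was 0.07. The other catalytic subunit, Prkaa1, had -0.33 ± 0.16 without smoke, and -0.04 without rat 302. Smoke, averaged, raised the LKB1 scaffold Cab39l by 0.21 ± 0.06 (limma adjusted p = 0.0251), and Camkk1, a calcium-dependent kinase upstream of AMPK, fell by 0.33 (limma adjusted p = 0.00154).

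Among 29 nuclear transport genes, 0 of the 28 besides Xpo4 passed for sand against silica in either setting, with 2 at an unadjusted limma p under 0.05 without smoke beside the same 11.9% of all genes. The export receptor Xpo1 had -0.31 ± 0.23 without smoke and 0.09 without rat 302, and Xpo6, Xpo7, Xpot and Cse1l lay between -0.09 ± 0.08 and 0.12 ± 0.08. Xpo5, which exports microRNA precursors, fell by 0.17 with smoke averaged over the particle conditions (limma adjusted p = 0.0369). Of the 16 measured Ro, La and RNA quality control genes besides Ro60, 0 passed in either setting in limma, with 2 at an unadjusted p under 0.05 without smoke, again beside 11.9%. The La gene Ssb, whose protein binds the same Y RNAs, had -0.53 ± 0.33 without smoke but 0.04 without rat 302. In this list Puf60, a splicing factor, fell by 0.19 with averaged smoke (limma adjusted p = 0.0454). The 24 measured HMG-box genes besides Bbx had 0 calls in limma for sand against silica in either setting and for averaged smoke, with 2 and 6 at an unadjusted p under 0.05 without smoke and for averaged smoke, beside 11.9% and 24.5% of all genes.

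Of the 18 measured genes of the syntenin and exosome list besides Sdcbp2, 2 were lower with sand than with silica without smoke, in a comparison where 0.267% of all genes were lower: Pdcd6ip, which encodes the syntenin partner ALIX, at -0.49 ± 0.09 (limma adjusted p = 0.00854) and the ESCRT subunit gene Chmp4b at -0.43 ± 0.07 (0.0078). Without rat 302 both still passed, with -0.43 (0.0305) and -0.45 (0.00846). For sand against silica both names fall outside the naming rule, and they were picked after their values were seen. Under smoke they had 0.00 and 0.07. The paralog Sdcbp, which encodes syntenin-1, had -0.12 ± 0.10 without smoke. Smoke without particles raised Cd63, a tetraspanin of late endosomes and exosomes, by 0.39 ± 0.07 (limma adjusted p = 0.0084), beside the rise of Sdcbp2, and averaged smoke raised Cd63 and Pdcd6ip and lowered Vps4a and Cd81.

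Of the 13 lists of markers of cell types and of the lung itself, 0 had a gene called for sand against silica in limma in either setting. Over all genes the calls were 0.274% without smoke and 0 under smoke, so nothing is read from that count. Without smoke their medians ran from -0.06 for alveolar macrophages to 0.29 for B and plasma cells, and without rat 302 from -0.13 for cardiac muscle to 0.11 for neutrophils. Cardiac muscle markers, led by Mybpc3, had 11 of 14 above 0 and a median of 0.22, and without rat 302 they had 4 of 14 above 0 and a median of -0.13. Their summed level reached 13.38 in rat 302 and 13.73 in rat 104, and ran from 9.84 to 10.79 in the silica group without smoke. T and NK cell markers had 11 of 11 above 0 with a median of 0.20, and without rat 302 they had 6 of 11 above 0 with a median of 0.00, and their summed level ran from 11.62 to 12.66, the highest in rat 302, with sand and from 11.68 to 11.92 with silica. The part of these cells in the gap was not tested.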

How the data were processed

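Per the submitters' processing notes, the deposited values are log2 signals made with RMA, and the sources used here do not name the version of RMA. Of 31099 probe sets, 57 controls were left out, and the brightest probe set with exactly 1 symbol in the platform annotation stood for each of 14217 genes. Groups came from the labels, and all 7 symbols matched RefSeq's gene table of assembly GRCr8. Coordinates are those of that table's promoters, since the files name no build. One model of 6 group means was fitted with limma 3.58.1 in R 4.3.3 to all 24 arrays (lmFit and eBayes, 18 residual degrees of freedom, two-sided, Benjamini-Hochberg over all genes, threshold 0.05), and tested on simulated data. Members were tested only in comparisons that give sand and silica equal weight or use neither, and in the interaction.

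The members and the 18 gene lists were chosen with earlier results of these data known. The genes named are the 7 members, their nearest family members, list genes past the threshold for smoke, averaged smoke or both particles, those most like the members, and the ends of the averaged comparison. The alternatives were another shrinkage, probe set rule, table, level filter, array weights, normalization and centring, fewer arrays, RNA integrity as a covariate on 19 arrays, and leaving out rats. With 4 rats a group, the number of arrays limits the precision, and quantile normalization removes a change shared by most genes. The labels give no batch, and the rats are separate animals.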

Additional observations from a re-analysis of the deposited data

Results flagged for a closer look

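Among the 42 sets of 4 rats examined (7 genes in 6 groups), 3 held a rat far from the other 3 by Dixon's criterion, where chance gives about 1 in 20. C11h21orf91 in rat 605, with smoke and silica, was at 9.37, and the next lowest rat of its group was at 9.70. Efcab14 in rat 201, with smoke and no particle, was at 9.96, and the next highest was at 9.75. Efcab14 in rat 405, with smoke and sand, was at 9.90, below the next at 10.08.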

How the results depend on the processing

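The median sand minus silica difference of the members kept its sign and moved by less than the spread between rats in every alternative run, lying between -1.21 and -0.91 without smoke, -0.32 and -0.17 under smoke and -0.64 and -0.54 averaged when each rat was left out in turn. The number of members passing for the change of the gap under smoke was 0; it was 2 with all probe sets tested, 1 with arrays centred on their medians, and 0 to 3 without single rats. For smoke without particles it was 1 and became 0 both with RNA integrity as a covariate on 19 arrays and on those arrays without it, and 0 to 1 without single rats. For averaged smoke it was 4 and became 2 on the same 19 arrays with and without the covariate. The number of arrays and the particular rats left out cannot be told apart there. For both particles against none it was 0, and 1 (Efcab14) with array quality weights. The filter at the median level kept 3 members and gave no counts.

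Small uncalled values changed sign. For smoke without particles, Ro60 was at -0.073 and Xpo4 at 0.010 with a gene's probe sets averaged; C11h21orf91 was at 0.052 and Efcab14 at -0.0021 with array weights; C11h21orf91 was at 0.0036 and Ro60 at -0.11 with the integrity covariate, and at 0.0054 and -0.12 on those arrays without it; and they were at 0.052 and -0.0019 without rats 302, 104 and 604. Without single rats the ranges were -0.13 to 0.052 for C11h21orf91, -0.070 to 0.25 for Ro60, -0.086 to 0.061 for Bbx, -0.018 to 0.083 for Efcab14 and -0.16 to 0.0055 for Xpo4. The change of the gap for Sdcbp2 was -0.070 with weights, -0.020 with quantile normalization over again, -0.21 and -0.18 on the 19 arrays with and without the covariate, and -0.086 to 0.14 without single rats. Averaged smoke on Xpo4 was -0.00050 with quantile normalization over again and -0.018 to 0.038 without single rats. Both particles against none gave C11h21orf91 0.045 with weights, 0.038 and 0.044 on the 19 arrays with and without the covariate, 0.048 without the 3 rats and -0.084 to 0.012 without single rats, and Xpo4 -0.052 to 0.032. The cause was not tested. No paired analysis was possible because the groups share no rat numbers.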
